A study of Homo sapiens with 36 samples.

Results

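BEAS-2B is a virus-immortalised line of human bronchial epithelial cells, and it was kept in medium with 800 µM copper(II) sulphate for up to 18 h. The last step of that course is described here, as the 2 arrays of cells after 18 h in copper set against the 2 arrays of cells after 12 h in copper. These are 4 of the 36 arrays of the series, chosen by their labels alone. The comparison asks which RNA levels still changed late in the exposure. Both groups had the same dose and the same medium (DMEM) and carry no genetic change, so time in copper is the labelled difference. BEAS-2B cells without copper gave 1 array at 18 h and 1 at 12 h, and HCT116, a human colorectal carcinoma line in 1400 µM copper sulphate, gave 2 arrays at 18 h and 2 at 12 h. RNA was labelled from poly(A) tails and hybridised to Illumina bead arrays. The labels do not tell whether paired arrays stem from separate dishes of cells, and the spread behind each p-value may therefore be technical only.

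Copper is an essential metal that binds thiols when in excess, and cells answer it with metallothioneins and zinc exporters through the factor MTF1, with chaperones through HSF1, and with antioxidant enzymes through NRF2. Later in an exposure, growth genes are commonly lowered. Most mRNAs carry a poly(A) tail. Replication-dependent histone mRNAs are the exception: they end in a stem-loop, are made in S phase and are normally left out of poly(A)-primed assays. Small nucleolar RNAs (snoRNAs), which guide chemical modification of ribosomal RNA, are mostly cut from introns of host genes and also lack a tail.

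A level below is a normalised log2 signal, a difference is 18 h minus 12 h on that log2 scale, ± is its standard error, and each p comes from the moderated test of limma, adjusted over all 14678 genes tested. Of these genes 378 rose between 12 and 18 h (2.58%) and 592 fell (4.03%). Of the genes called, 124 rose and 83 fell by more than 2-fold, and the median over all genes was -0.05. At an unadjusted p below 0.05 there were 3080 genes. These calls rest on a spread pooled over all 22 groups of the series, while the late copper arrays differed more from their replicate than earlier ones did. The SD over genes of the difference between replicates was 0.42 at 18 h and 0.39 at 12 h, against 0.26 to 0.31 in the other replicated BEAS-2B groups. With the 4 arrays fitted alone, which leaves 2 residual degrees of freedom, 0 genes were called at the adjusted threshold and 2240 had an unadjusted p below 0.05. The log2 differences are the same numbers in that fit by construction, so the signs of the 378 and 592 genes could not change. Without 1 array, the counts lay between 161 and 333 genes higher and between 321 and 369 genes lower. Without replicate 1 of 12 h 213 genes rose and 369 fell, without replicate 2 of 12 h 161 rose and 321 fell, and without replicate 1 or 2 of 18 h 358 and 328 fell. Of 97 genes that were called and are among those named or listed here, 41 kept their call whichever 1 of the 4 arrays was left out, and 20 lost it in each of these fits.

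The share of probes detected above background (detection p below 0.01) was 36.2% and 36.7% at 18 h, against 37.9% and 37.5% at 12 h. The groups did not overlap, and the exact permutation test gave p = 0.333, the smallest that 2 arrays against 2 can give. Without copper the share was 42.1% at 18 h and 43.2% at 12 h. Of the epithelial markers, the keratins KRT7, KRT8 and KRT18 and the adhesion gene EPCAM were detected on all 4 arrays. CDH1 was not detected. Of the 10 epithelial markers, 7 had a named probe on the array and 5 were tested. The basal keratins KRT5 and KRT14 were not among those tested, so no level is given for them. All 8 mesenchymal markers were tested and 7 were detected on all 4 arrays, VIM and FN1 among them. Of 5 leukocyte markers tested, CD14 was detected on all 4 arrays, and PTPRC, CD79A and LYZ on none of them. Of 5 colon markers tested, CDX1 was detected on all 4 arrays, and CDX2 and MUC2 on none. The endothelial marker VWF, the 1 of its list that was tested, was detected on all 4. The summed linear level of the ciliated and secretory markers was 155 and 118 at 18 h, against 48.2 and 60.8 at 12 h. That sum moved with FOXJ1, a factor of ciliated cells, whose level was 7.28 and 6.71 at 18 h and 5.43 and 5.58 at 12 h. The ciliary motor gene DNAI1 was not detected on any of them.

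Replication-dependent histone genes, clustered on chromosomes 1 and 6, held the largest rises. Of 48 such genes tested, 21 rose and 0 fell, against 2.58% of all genes that rose. The median difference of the 48 was 0.63 (range -0.42 to 2.91), and over the same hours without copper it was 0.03. The family was looked at as a whole after its values were seen. The core histone list, which also holds variants, had 7 rises and 0 falls among 16 members tested, with a median of 0.51. Without replicate 1 of 18 h, 4 members of that list were called.

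H2AC8, which encodes an H2A protein of the nucleosome core, had levels of 8.59 and 8.91 at 18 h, against 5.57 and 6.11 at 12 h. It was not detected on any of the 8 untreated BEAS-2B arrays, whose 2 latest lay at 4.70 (18 h) and 4.58 (12 h). The difference was 2.91 ± 0.20 (adjusted p = 1.89e-07), the largest rise of all genes tested. H2AC1, another H2A gene, had levels of 8.98 and 8.80 at 18 h and 6.41 and 6.64 at 12 h, a difference of 2.37 ± 0.19 (adjusted p = 1.33e-06). H4C1, an H4 gene, had levels of 8.84 and 8.23 at 18 h, against 6.49 and 6.37 at 12 h (2.11 ± 0.20). In each of these genes both 18 h arrays lay above both 12 h arrays, as in all 378 genes that rose. Their 12 h arrays in turn lay above the untreated ones.

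H2BC21, an H2B gene whose mRNA is known to be polyadenylated in some cells, had levels of 9.06 and 8.77 at 18 h and 7.07 and 7.45 at 12 h (1.65 ± 0.21, adjusted p = 0.000342). It was detected on all 8 untreated arrays. H3C12, an H3 gene, had 7.11 and 7.26 at 18 h and 5.44 and 5.21 at 12 h (1.86 ± 0.27, adjusted p = 8e-04). H2AC18, one of the brightest members at 12 h, had 12.50 and 12.46 at 18 h, against 11.62 and 11.71 at 12 h (0.82 ± 0.16, adjusted p = 0.00705). H2AC18, H2AC19 and H2AC20 code for nearly the same protein, so their probes may share signal. Other called members ran from H2BC5, at 0.58, to H2AC17, at 1.50. H2BC5 lost its call without either 18 h array or without replicate 1 of 12 h (adjusted p up to 0.162), and H2AC17 kept it in each such fit.

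Promoter sequences are shown for the 3 largest histone rises that the RefSeq table covers (assembly GRCh38.p14), because these genes moved together. Each run is the 250 bases before the annotated start, 5′ to 3′ on the gene's strand, and capitals mark CCAAT and TATAAA on either strand, the letters of the CCAAT box and the TATA box.
H2AC8 (chr6:26216671-26216920, plus strand): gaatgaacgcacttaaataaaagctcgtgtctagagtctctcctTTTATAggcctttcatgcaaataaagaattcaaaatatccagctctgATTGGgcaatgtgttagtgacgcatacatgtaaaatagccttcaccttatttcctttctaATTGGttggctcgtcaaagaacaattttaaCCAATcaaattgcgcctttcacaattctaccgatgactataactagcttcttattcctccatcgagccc
H2AC1 (chr6:25726563-25726812, minus strand): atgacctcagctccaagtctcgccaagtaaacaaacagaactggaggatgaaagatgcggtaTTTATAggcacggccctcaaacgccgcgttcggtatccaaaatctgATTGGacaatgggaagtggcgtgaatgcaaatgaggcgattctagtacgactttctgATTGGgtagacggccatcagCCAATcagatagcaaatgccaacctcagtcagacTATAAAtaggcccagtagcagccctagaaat
H2BC21 (chr1:149886683-149886932, minus strand): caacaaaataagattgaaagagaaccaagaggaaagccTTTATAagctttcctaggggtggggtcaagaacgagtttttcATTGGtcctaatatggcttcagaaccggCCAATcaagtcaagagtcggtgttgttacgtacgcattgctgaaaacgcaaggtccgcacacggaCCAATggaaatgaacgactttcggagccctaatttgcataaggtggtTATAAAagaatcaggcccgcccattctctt
Each of the 3 held CCAAT or its complement 3 times. TATAAA or its complement occurred 1 time before H2AC8, and 2 times before both H2AC1 and H2BC21. The table covered 18 of the 21 histone genes that rose, and all 18 held both motifs. Of the other clustered histone genes tested, the table covered 26, of which 19 held CCAAT (73.1%) and 14 held TATAAA (53.8%). Of all 27305 promoters of that length, 33% held CCAAT and 11.1% held TATAAA. Of the genes tested that the table covered, 35.2% held CCAAT and 6.9% held TATAAA. A match was counted wherever it lay in the 250 bases and on either strand, so it need not be the working box of the promoter. Such a match describes letters and shows no binding.

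Outside the clustered family, calls among histone genes ran both ways. The split went by gene symbol alone, and it left out H3-4, which lies on chromosome 1, as some clustered members do. Of 14 variant or other histone genes tested, 4 rose and 1 fell, with a median of 0.09. The largest of these rises was that of H3-4, the gene of a testis-enriched H3 protein, with 9.45 and 9.48 at 18 h and 8.06 and 8.17 at 12 h (1.35 ± 0.34, adjusted p = 0.023). H2AJ, an H2A variant gene, had 11.98 and 11.92 at 18 h and 11.13 and 11.27 at 12 h (0.75 ± 0.12, adjusted p = 0.00152). H2AX, whose product is phosphorylated beside DNA breaks, had 8.45 and 8.33 at 18 h and 7.85 and 7.65 at 12 h (0.64 ± 0.13, adjusted p = 0.00753). MACROH2A1, a gene of a variant of silent chromatin, fell by 0.38 ± 0.10 (adjusted p = 0.036). The calls of H3-4 and MACROH2A1 were lost whichever 1 of the 4 arrays was left out (adjusted p up to 0.0989 and 0.16), and that of H2AX without replicate 1 of 18 h or replicate 2 of 12 h (up to 0.077).

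Among small non-coding RNAs, calls were frequent for snoRNAs and not for microRNAs. Of 167 snoRNA genes tested, 22 rose (13.2%, against 2.58% of all genes) and 0 fell, and their median difference was 0.22, against -0.05 for all genes. Among H/ACA snoRNAs, which guide pseudouridylation, 16 of 76 rose (21.1%, median 0.36). Among C/D snoRNAs, which guide ribose methylation, 6 of 90 rose (6.67%, median 0.18). Of 120 microRNA genes 3 rose (2.5%) and 0 fell, with a median of 0.01. With no detection filter, the snoRNA share was smaller: 19 of 279 genes rose (6.81%, against 1.77% of all genes). The class was looked at after its values were seen, and 13 and 12 snoRNAs were called without replicate 1 and 2 of 18 h, and 10 and 7 without replicate 1 and 2 of 12 h. The extraction kit's columns keep little short RNA, and a probe for a snoRNA can also read its host transcript.

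SNORA57 had levels of 11.57 and 11.42 at 18 h, against 10.41 and 10.45 at 12 h (1.06 ± 0.26, adjusted p = 0.0215). SNORD104 had 10.82 and 10.69 at 18 h and 9.79 and 9.83 at 12 h (0.94 ± 0.15, adjusted p = 0.00141). These were among the brighter snoRNAs. The largest snoRNA rise was that of SNORA26, with 6.61 and 6.81 at 18 h and 5.64 and 5.08 at 12 h (1.35 ± 0.27, adjusted p = 0.00662). The call of SNORA57 was lost whichever 1 of the 4 arrays was left out (adjusted p up to 0.102), that of SNORA26 without replicate 2 of 12 h (0.0783), and SNORD104 kept its call. Of 13 small nuclear RNAs 2 rose (15.4%, against 2.58% of all genes). RNU4ATAC, the U4atac RNA of the minor spliceosome, had 8.51 and 8.67 at 18 h and 6.77 and 6.94 at 12 h (1.74 ± 0.26, adjusted p = 0.001). RNU4-2, a U4 RNA of the major spliceosome, had 7.82 and 7.53 at 18 h and 6.38 and 6.68 at 12 h (1.15 ± 0.21, adjusted p = 0.00374). VTRNA1-2, a vault RNA, had 6.59 and 6.65 at 18 h and 5.37 and 4.79 at 12 h, where 1 of 2 arrays detected it (1.54 ± 0.23, adjusted p = 0.001).

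Host genes of snoRNAs and other long non-coding RNAs, most of them polyadenylated, formed a list of 16 tested members, of which 4 rose (25%) and 0 fell (median 0.32). SNHG1, a host of several C/D snoRNAs, had 11.27 and 11.17 at 18 h and 10.69 and 10.51 at 12 h (0.62 ± 0.12, adjusted p = 0.00457). SNHG8, EPB41L4A-AS1 and SNHG5 rose by 0.42 to 0.47. Groups did not overlap in 7219 of all 14678 genes tested. Both 18 h arrays lay above both 12 h arrays in all 378 genes that rose, and so in each of these 4. Each also lost its call without at least 1 of the 4 arrays: SNHG1 without replicate 2 of 12 h (adjusted p = 0.0535), and SNHG5 in 3 of these fits (up to 0.158).

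The other named rises came from genes of differing functions. Beside the 5 histone genes, RNU4ATAC and VTRNA1-2, the 15 largest rises among named genes held FAM83F, CSKMT, SLC26A4-AS1, HOXD1, DAND5, IDI2, KRTAP19-5 and HBA2. FAM83F, a member of a family of casein kinase 1 anchors, had 7.21 on both 18 h arrays, against 5.00 and 5.46 at 12 h (1.98 ± 0.22, adjusted p = 5.31e-05). HOXD1, a homeobox gene, had 7.03 and 6.94 at 18 h and 5.36 and 5.04 at 12 h, and no untreated BEAS-2B array detected it (1.79 ± 0.20, adjusted p = 5.73e-05). DAND5, a gene of a secreted Nodal antagonist, had 8.53 and 8.13 at 18 h and 6.74 and 6.52 at 12 h (1.70 ± 0.28). Of all genes that rose, 31.2% were undetected on both untreated arrays of 0 h, against 20.0% of all genes tested. A gene undetected there passed the filter, detection on at least 2 arrays, through other arrays, the 18 h ones included. The filter itself can therefore raise the share among rises, and nothing further is read from it.

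CSKMT, a gene of a mitochondrial citrate synthase methyltransferase, was not detected at 12 h. Where 1 group had no detected array, only a bound is given. In it that group took each array's lowest detected signal or its own value, whichever was higher. Where its own values were higher, the bound equals the fold of the measured difference. Such a bound allows for the detection limit only. It leaves out the spread between arrays, other probes of the gene and other ways of processing, under which a change can be smaller. CSKMT had 6.56 and 6.42 at 18 h and was at least 3.42-fold higher than at 12 h (4.58 and 4.43). IDI2, an isopentenyl diphosphate isomerase gene, was at least 3.17-fold higher, and KRTAP19-5, a hair keratin-associated protein gene, at least 3.05-fold higher. HBA2, an alpha globin gene, had 7.65 and 7.62 at 18 h but 5.30 and 6.89 at 12 h (1.54 ± 0.34, adjusted p = 0.0121). Without replicate 1 of 12 h its difference was 0.74 (adjusted p = 0.126), and without replicate 1 of 18 h the adjusted p was 0.0512.

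**Figure D1:**
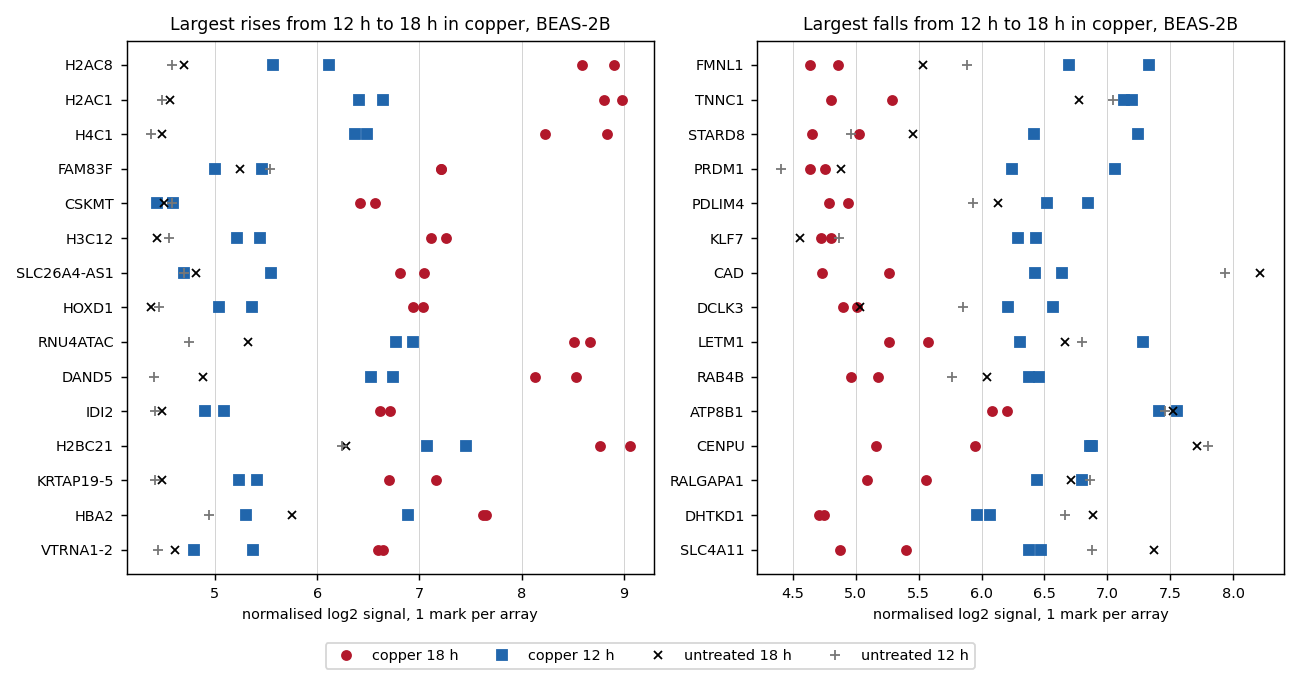
Normalised log2 signals (horizontal axes) of the 15 largest named rises (left) and the 15 largest named falls (right) in BEAS-2B, with 1 mark per array: copper 18 h (circles), copper 12 h (squares), untreated 18 h (x) and untreated 12 h (+). The 18 h and 12 h copper marks do not overlap for any gene shown, a condition of the choice, and most falls end near the lower end of the scale, where probes are not detected.

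The falls were smaller on average and came from brighter genes. The median level of the 592 genes that fell was 6.91 at 18 h, against 7.60 at 12 h, and the median level of the 378 that rose was 7.48 at 18 h and 6.45 at 12 h. Of the 592, 86 were detected on neither 18 h array, and 5 on neither 12 h array. Of the 378 that rose, 74 were detected on neither 12 h array. Of all 14678 genes tested, 4132 were detected on neither 18 h array and 3835 on neither 12 h array. Both are larger shares than the 86 of 592 and the 74 of 378. The median span on the genome was 39978 bp for the genes that fell, against 12016.5 bp for the genes that rose and 26001 bp for all genes tested.

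Among the named genes, FMNL1, TNNC1, STARD8, PRDM1 and PDLIM4 fell most. FMNL1, a formin gene for actin assembly, had 4.64 and 4.86 at 18 h, where it was not detected, and 7.33 and 6.69 at 12 h, so it was at least 4.67-fold lower (adjusted p = 0.00299). TNNC1, which encodes a calcium-binding troponin, had 5.29 and 4.81 at 18 h and 7.20 and 7.13 at 12 h, at least 4.34-fold lower (adjusted p = 0.00282). STARD8 had 5.02 and 4.65 at 18 h and 6.42 and 7.24 at 12 h, at least 3.97-fold lower (adjusted p = 0.000279). PDLIM4, a gene of an actin-associated LIM protein, had 4.79 and 4.94 at 18 h and 6.52 and 6.84 at 12 h, at least 3.52-fold lower (adjusted p = 2.37e-06). None of these 4 genes was detected on an 18 h array, and all were detected on both 12 h arrays.

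PRDM1, the gene of the repressor BLIMP1, was at least 3.77-fold lower at 18 h (4.64 and 4.75) than at 12 h (6.24 and 7.06), although its other probe differed by only -0.52. KLF7, a zinc finger factor gene, was at least 3.03-fold lower, with 4.80 and 4.72 at 18 h and 6.43 and 6.29 at 12 h. CAD, the gene of the enzyme that opens pyrimidine synthesis, had 5.26 and 4.73 at 18 h and 6.64 and 6.42 at 12 h, at least 2.89-fold lower (adjusted p = 0.000414). Both copper groups lay below the untreated arrays, at 8.22 (18 h) and 7.93 (12 h). CENPU, a centromere gene, had 5.95 and 5.16 at 18 h and 6.86 and 6.88 at 12 h (-1.31 ± 0.21, adjusted p = 0.00141).

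Named falls in genes of mitochondrial proteins included those of LETM1, DHTKD1 and MIEF1. LETM1, a gene of a cation exchanger of the inner mitochondrial membrane, was at least 2.60-fold lower, with 5.57 and 5.27 at 18 h and 7.28 and 6.31 at 12 h. Its 12 h arrays differed, and without replicate 1 of 12 h its log2 difference was -0.89 (adjusted p = 0.0103), against -1.38 with all 4 arrays. DHTKD1, which encodes an enzyme of lysine breakdown, was at least 2.45-fold lower. MIEF1, which encodes a receptor for the mitochondrial fission enzyme, had 6.02 and 6.05 at 18 h and 7.09 and 7.06 at 12 h (-1.04 ± 0.11, adjusted p = 5.73e-05). Of 38 mitochondrial ribosomal protein genes, however, 1 fell (MRPL49, by 0.91) and 0 rose, and of 39 nuclear genes of the respiratory chain 0 were called and 6 had an unadjusted p below 0.05.

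Of the remaining large falls, ATP8B1, a lipid flippase gene, fell by 1.34 ± 0.27, and RALGAPA1, a gene of a Ral GTPase-activating protein, by 1.29 ± 0.26. RAB4B, which encodes a GTPase of endosome recycling, fell by 1.35 ± 0.27, but its other probe differed by 0.06, and the mean of its probes gave no call (-0.64, adjusted p = 0.188). DCLK3, a kinase gene, and SLC4A11, a transporter gene of the bicarbonate family, differed by -1.43 ± 0.41 (adjusted p = 0.0447) and -1.29 ± 0.36 (adjusted p = 0.0418). Neither was called when any 1 of the 4 arrays was left out, with adjusted p reaching 0.194 and 0.227. RALGAPA1 was not called without replicate 1 of 18 h or without replicate 1 of 12 h, nor ATP8B1 without replicate 2 of 12 h, at adjusted p up to 0.0695 and 0.0503.

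Helicase and polymerase genes were among the falls. Of 27 DNA replication genes tested, 5 fell and 1 rose, against 4.03% and 2.58% of all genes, and the list's median was -0.17. MCM5, a subunit of the replicative helicase, had 7.73 and 7.70 at 18 h and 8.47 and 8.50 at 12 h (-0.77 ± 0.11, adjusted p = 0.000954). MCM6, another subunit, had 9.80 and 9.91 at 18 h and 10.40 and 10.42 at 12 h (-0.55 ± 0.09, adjusted p = 0.00235). GINS2, of the helicase's GINS partner, fell by 0.62 ± 0.12, POLE2, of DNA polymerase epsilon, by 0.65 ± 0.13, and RRM1, of ribonucleotide reductase, by 0.48. CCNE1, the cyclin gene of S phase entry, rose by 0.62. Leaving out replicate 2 of 12 h ended the call of GINS2 (adjusted p = 0.088), leaving out replicate 1 of 18 h or of 12 h that of POLE2 (up to 0.0678), and RRM1 lost its call in each of the 4 such fits and CCNE1 in 3 (up to 0.077 and 0.271). Of 28 mitosis genes only NEK2, a centrosome kinase gene, was called. It had 10.57 and 10.56 at 18 h and 9.93 and 9.96 at 12 h, a rise of 0.62 ± 0.12 (adjusted p = 0.00706), which the mean of its probes did not hold (0.54, adjusted p = 0.0807). The brighter probe of CDK1, the mitotic kinase gene, had 9.36 and 9.38 at 18 h and 9.31 and 9.50 at 12 h. The other CDK1 probe differed by -0.88, and the mean of both gave a call (-0.46, adjusted p = 0.0191).

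Of 25 extracellular matrix and protease genes, 4 fell (16%, against 4.03% of all genes) and 0 rose, with a median of -0.18. COL1A1, a chain of type I collagen, had 10.50 and 10.59 at 18 h and 11.51 and 11.40 at 12 h (-0.91 ± 0.18, adjusted p = 0.00713). COL5A2, a collagen V chain, had 10.11 and 10.16 at 18 h and 10.97 and 10.87 at 12 h (-0.79 ± 0.16, adjusted p = 0.00815). PLAT, the tissue plasminogen activator gene, fell by 0.89 ± 0.22, and LAMC1, a laminin chain gene, by 0.56 ± 0.15. Of 23 YAP target and actin genes 3 fell (13%) and 0 rose: AXL, a receptor kinase, by 0.64, ACTN1, which crosslinks actin, by 0.42, and VCL, which encodes vinculin, by 0.40. LAMC1 and VCL lost their call whichever 1 of the 4 arrays was left out (adjusted p up to 0.15 and 0.256), PLAT, ACTN1 and AXL in 3 of those 4 fits (up to 0.116, 0.3 and 0.102), and COL5A2 without replicate 1 of 12 h (0.0532). The mean of its probes gave -0.17 for VCL (adjusted p = 0.527). COL1A1 kept its call without any 1 array, at adjusted p up to 0.0492.

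In the list of BCL2 family genes and death adaptors, 4 of 23 fell (17.4%, against 4.03% of all genes) and 0 rose (median -0.07). BCL2L1, the gene of the survival protein BCL-XL, had 10.04 and 10.00 at 18 h and 10.40 and 10.52 at 12 h (-0.44 ± 0.11, adjusted p = 0.0296). BCL2, the founding survival gene of the family, had 6.37 and 6.63 at 18 h and 7.26 and 7.16 at 12 h (-0.71 ± 0.20, adjusted p = 0.0405). The other members that fell act to promote death: BID, a BH3-only gene, fell by 0.46 ± 0.12, and CASP2, a caspase gene, by 0.43 ± 0.11. BCL2L1, BCL2 and BID lost their call whichever 1 of the 4 arrays was left out (adjusted p up to 0.175, 0.212 and 0.141), and CASP2 did in 3 of those fits (up to 0.211). Averaged over their probes, none of the 4 was called (-0.53 for BCL2L1, -0.34 for BCL2, -0.41 for BID and -0.34 for CASP2, adjusted p from 0.0793 to 0.197). Of 23 p53 targets 2 fell (8.7%) and 1 rose (4.35%). CDKN1A, which encodes the cell cycle inhibitor p21, fell by 0.44 ± 0.12 and AEN, a nuclease gene, by 0.56 ± 0.16, while XPC, a DNA repair gene, rose by 0.65 ± 0.15. CDKN1A and AEN lost their call whichever 1 array was left out (adjusted p up to 0.218 and 0.159), XPC in 3 of those fits (up to 0.141), and the mean of its probes gave -0.21 for AEN (adjusted p = 0.383).

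The metal and protein stress genes that stood far above untreated levels at both times did not pass the test. Of 27 heat shock genes 0 were called, and 0 had an unadjusted p below 0.05. HSPA6, an inducible Hsp70 gene, had 14.00 and 13.91 at 18 h, against 14.05 and 14.13 at 12 h. HMOX1, the haem oxygenase 1 gene, had 13.94 and 14.02 at 18 h and 13.85 on both 12 h arrays. The highest signals of any gene lay between 14.28 and 14.36 on each array, and HSPA6 and HMOX1 lay near that ceiling. Of 10 metallothionein genes 0 were called and 1 had an unadjusted p below 0.05: MT1X had 12.88 and 12.86 at 18 h and 13.21 and 13.34 at 12 h (-0.41 ± 0.13, adjusted p = 0.061). SLC30A1, a zinc exporter gene, had 10.93 and 10.85 at 18 h and 11.29 and 11.14 at 12 h (-0.32 ± 0.13, adjusted p = 0.164). Of 28 proteasome and ubiquitin genes and 42 cytosolic ribosomal protein genes 0 were called, with 3 and 4 at an unadjusted p below 0.05.

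Of 23 copper and zinc transport genes 2 fell (8.7%, against 4.03% of all genes) and 0 rose (median -0.16), both of them copper-exporting ATPases. ATP7A had 6.36 and 5.78 at 18 h and 6.93 and 6.58 at 12 h (-0.68 ± 0.20, adjusted p = 0.0444). ATP7B had 6.05 and 6.47 at 18 h and 7.16 and 6.94 at 12 h (-0.79 ± 0.20, adjusted p = 0.0262), but the mean of its probes turned the difference to 0.12. Both lost their call in 3 of the 4 fits without 1 array (adjusted p up to 0.371 for ATP7A and 0.195 for ATP7B) and with array weights. Of 21 NRF2 targets 1 fell (4.76%), PIR, by 0.54 ± 0.15, and 0 rose. Of 27 genes of the ATF4 response 2 fell (7.41%) and 0 rose (median -0.17). SLC7A5, an amino acid carrier gene, had 12.45 and 12.44 at 18 h and 12.92 and 12.86 at 12 h (-0.45 ± 0.11, adjusted p = 0.0268), and TRIB3, a pseudokinase gene, fell by 0.33 ± 0.09. PIR, SLC7A5 and TRIB3 lost their call whichever 1 of the 4 arrays was left out (adjusted p up to 0.217, 0.119 and 0.193).

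Of 33 immediate early and AP-1 genes 3 rose (9.09%, against 2.58% of all genes) and 2 fell (6.06%, against 4.03%), with a median of 0.02. NR4A2, an orphan nuclear receptor gene, had 10.94 and 10.83 at 18 h and 10.32 and 10.11 at 12 h (0.67 ± 0.14, adjusted p = 0.00903). DUSP6, a phosphatase gene that restrains ERK, had 9.68 and 9.49 at 18 h and 9.00 and 8.91 at 12 h (0.63 ± 0.14, adjusted p = 0.0155), and IER5L rose by 0.86 ± 0.21. The other DUSP6 probe differed by 0.01, and the mean of both gave 0.32 (adjusted p = 0.154). FOSL1, an AP-1 subunit gene, fell by 0.50 ± 0.11, and DUSP1, another phosphatase gene, by 0.35. NR4A2 and DUSP6 lost their call without replicate 1 of 18 h or replicate 2 of 12 h (adjusted p up to 0.088 and 0.105), FOSL1 without replicate 2 of 18 h or of 12 h (up to 0.0875), IER5L in 3 of the 4 fits without 1 array (up to 0.126) and DUSP1 in each of them (up to 0.241). FOSB had 12.13 and 12.06 at 18 h and 12.17 and 12.09 at 12 h, and the groups overlapped.

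Of 24 NF-kB and cytokine genes 4 rose (16.7%, against 2.58% of all genes) and 0 fell (median 0.10). CXCL2, a neutrophil chemokine gene, had 8.53 and 8.31 at 18 h and 7.29 and 7.78 at 12 h (0.89 ± 0.21, adjusted p = 0.0187). TNFAIP3, which encodes the NF-kB inhibitor A20, had 6.14 and 6.59 at 18 h and 5.41 and 5.69 at 12 h (0.81 ± 0.22, adjusted p = 0.0382). PTGS2, the cyclooxygenase 2 gene, rose by 0.58 ± 0.15. Each of the 4, CCL2 included, lost its call when single arrays were left out, CXCL2 in 2 of the 4 fits (adjusted p up to 0.162) and TNFAIP3, PTGS2 and CCL2 in 3 (up to 0.255, 0.206 and 0.355). CCL2, a monocyte chemokine gene, was detected on 1 of 2 arrays at 18 h and on neither at 12 h, and lay below its untreated levels of 7.51 (18 h) and 7.10 (12 h). Of 15 genes of EGFR ligands and growth factors 1 rose: VGF, a secreted neuropeptide precursor gene, had 11.39 and 11.44 at 18 h and 10.30 and 10.47 at 12 h (1.03 ± 0.14, adjusted p = 0.000574).

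Single members of other lists passed the test. WDR74, of ribosome assembly, rose by 0.90 ± 0.23 and HEATR1, of ribosomal RNA transcription, fell by 0.70 ± 0.11, the only calls among 35 ribosome biogenesis genes. In the unfolded protein response list of 19, CRELD2, an endoplasmic reticulum chaperone gene, rose by 0.41 ± 0.10 and XBP1, the gene of a central factor of that response, fell by 0.44 ± 0.13. In mRNA decay and feedback, SPRED2, which restrains RAS signalling, fell by 0.89 ± 0.17 and DCP2, the decapping enzyme gene, by 0.64 ± 0.15. KDM3A, a histone demethylase gene of the hypoxia list, rose by 0.58 ± 0.14, and HK1, the hexokinase 1 gene, fell by 0.37 ± 0.10, although the mean of its probes gave 0.19. DHCR7, of the last step of cholesterol synthesis, fell by 0.66 ± 0.13, ATG7, of autophagy, by 0.56 ± 0.13, and ISCA2, of iron-sulphur cluster assembly, was not detected at 18 h and was at least 1.64-fold lower. SRSF10, a splicing factor gene, rose by 0.62 ± 0.15. HEATR1, SPRED2 and ISCA2 kept their call without any 1 of the 4 arrays. WDR74, XBP1 and HK1 lost it in each such fit (adjusted p up to 0.119, 0.181 and 0.193), CRELD2, KDM3A, ATG7 and SRSF10 in 3 (up to 0.144, 0.107, 0.14 and 0.203), DCP2 in 2 (up to 0.126), and DHCR7 without replicate 1 of 12 h (0.0617).

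**Figure D2:**
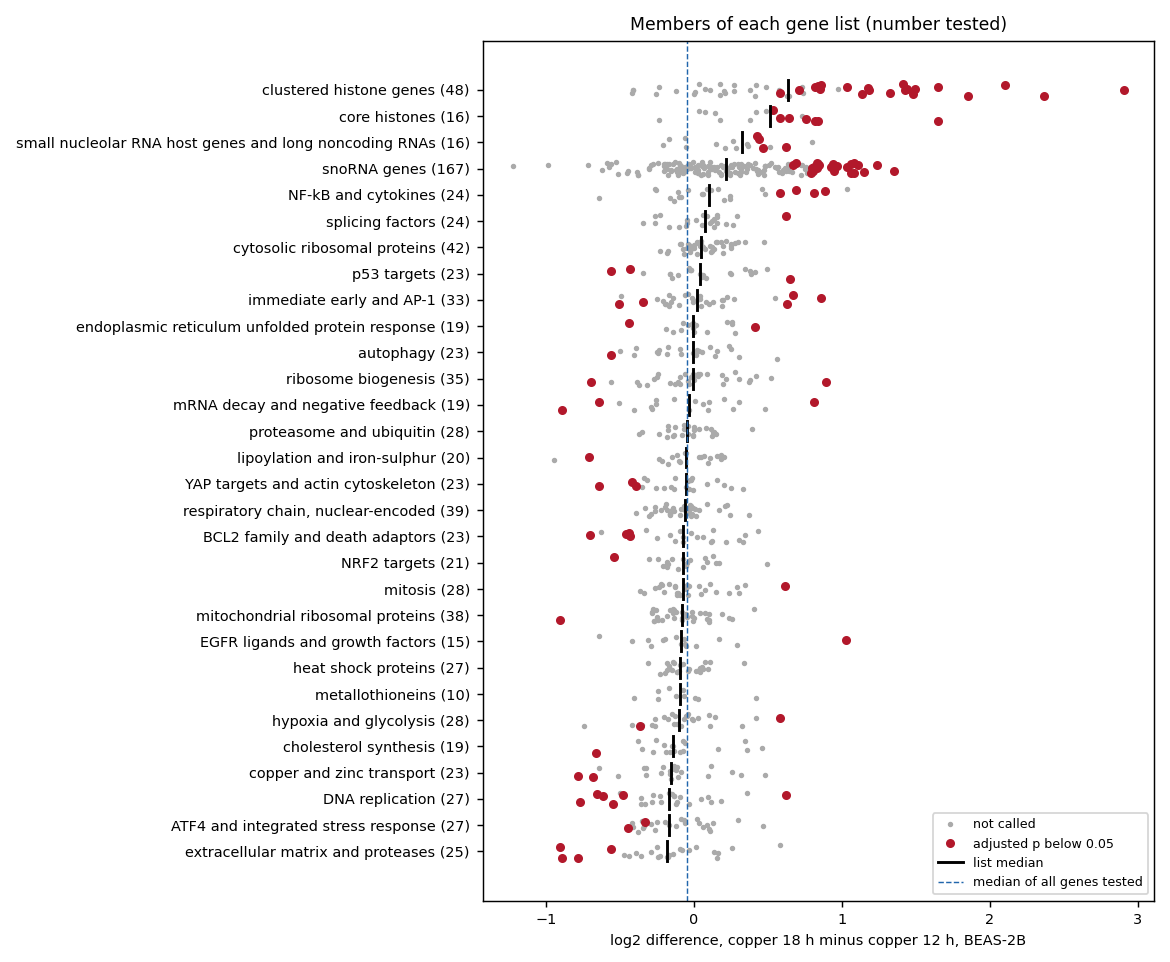
Log2 differences of 18 h minus 12 h in copper (horizontal axis) for the members of 28 gene lists, the clustered histone genes and the snoRNA genes, sorted by median, with the number tested in brackets. Red marks are genes with an adjusted p below 0.05, grey marks are the other members, bars are medians and the dashed line is the median of all genes (-0.05). The histone and snoRNA groups lie to the right, and heat shock and metallothionein genes hold 0 red marks.

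Cells without copper give the change over the same hours. Between 12 and 18 h without copper, 0 genes were called (320 at an unadjusted p below 0.05), though this sets 1 array against 1 and leans on the spread of other groups. The SD over genes was 0.37 for the copper step and 0.25 for the untreated step. The copper step differed from the untreated step in 19 genes (0.129%), 13 higher (0.0886%) and 6 lower (0.0409%), and both steps use independent arrays. That count was 3 with BEAS-2B arrays alone, 10 with the strict detection filter, 10 with the replicate block, and 50 with a background offset of 50. It was 49 without replicate 1 of 18 h, 39 without replicate 2 of 18 h and 30 without replicate 2 of 12 h. Among the named genes were H2AC8, whose steps differed by 2.79 ± 0.35 (adjusted p = 0.00223), H2AC1 by 2.29 ± 0.33 (adjusted p = 0.00669) and FAM83F by 2.28 ± 0.37 (adjusted p = 0.0231). H2AC8 and H2AC1 were not detected without copper, so the untreated part of their values rests on undetected probes. On the lower side were PAMR1, by -1.33 ± 0.24, GBP2, by -1.22 ± 0.22, and MIEF1, by -1.14 ± 0.20. STARD8 (adjusted p = 0.0335) and PDLIM4 (adjusted p = 0.00289) also had lower steps in copper, where neither was detected at 18 h, and no exact size is read from them here. GBP2, an interferon-induced GTPase gene, had 6.13 and 6.21 at 18 h in copper and 7.13 and 6.94 at 12 h. PAMR1, which encodes a secreted protein with a peptidase-like domain, had 6.30 and 6.44 at 18 h and 7.48 and 7.60 at 12 h.

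The genes of the late step had differing histories. At 6 h in copper against untreated cells of 6 h, which share no array with the late step, 31.1% of all genes differed, 13.4% higher and 17.7% lower. Of the 378 late rises, 27.2% were already higher at 6 h and 14% were lower. Of the 592 late falls, 25% were already lower and 17.7% were higher. H2AC8 was not among them: its level was 4.53 at 6 h in copper, and it differed from untreated by 0.06 (adjusted p = 0.88). NR4A2 was, at 2.16 above untreated at 6 h (adjusted p = 1.64e-09). PDLIM4 had risen at 6 h by 0.73 (adjusted p = 0.00104), STARD8 by 0.77 and PLAT by 2.15, before their late falls.

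The step before, 12 h minus 6 h in copper, shares the 12 h arrays with the late step, so values are only set side by side. In it 8.83% of all genes rose and 15% fell. H2AC17, an H2A gene, differed by 1.50 in the late step and by 4.18 in the step before. H2AC8 differed by 2.91 in the late step and by 1.31 before, and SNORA57 by 1.06 in the late step and by 4.90 before. FAM83F differed by 1.98 late and by -0.80 before. STARD8, not detected at 18 h, had risen by 0.77 before (adjusted p = 0.0361). MCM5 differed by -0.77 late and by -0.83 before, and COL1A1 by -0.91 late and by -0.68 before.

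**Figure D3:**
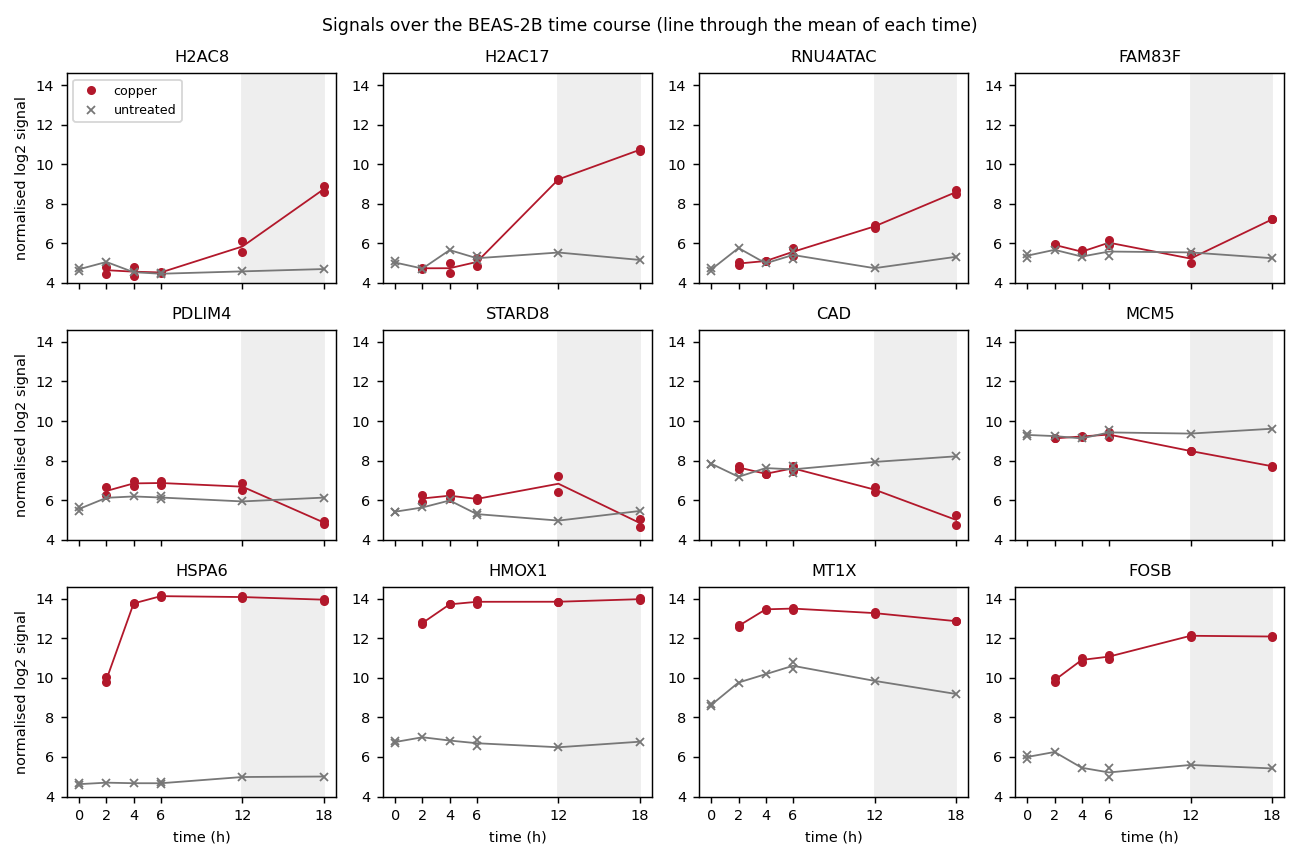
Normalised log2 signals (vertical axes) of 12 genes against time in hours in BEAS-2B, with 1 mark per array, copper as circles and untreated as crosses, and lines through the mean of each time. The late step is shaded. H2AC8 and RNU4ATAC still climb there, PDLIM4 and STARD8 drop below detection at 18 h, STARD8 after a rise between 6 and 12 h, and HSPA6, HMOX1 and FOSB lie flat.

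In HCT116 cells the same hours in copper, at 1400 µM, brought 586 rises (3.99%) and 1049 falls (7.15%). Line and dose cannot be told apart here. Of the late rises in BEAS-2B, 117 also rose in HCT116, which is 31.0% of the BEAS-2B list and 20.0% of the HCT116 list. Of the falls 107 were shared, 18.1% of the BEAS-2B list and 10.2% of the HCT116 list. The steps run opposite ways, each past the threshold, in 10 genes that rose and 11 that fell in BEAS-2B. The steps themselves differed in 385 genes (2.62%), 225 of them higher (1.53%) and 160 lower (1.09%) in BEAS-2B. Fitted on the 8 late copper arrays alone, 0 genes differed, and with array weights 30 did. Without replicate 1 of 18 h in HCT116, 878 did, and without replicate 2 of 12 h in BEAS-2B, 241 did.

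Of the clustered histone genes, 13 of 48 rose in HCT116 (median 0.37), against 3.99% of all genes. The steps of 4 differed between lines, against 2.62% of all genes. H4C1 rose by 2.11 in BEAS-2B and by 2.48 in HCT116, and H2AC1 by 2.37 and, in HCT116, by 2.07. H2AC8 was not detected in HCT116 at 18 h or 12 h, and its steps differed by 2.89 ± 0.28 (adjusted p = 3.48e-05). H2BC21 differed between lines by 1.29 ± 0.30 (adjusted p = 0.0335) and H3C12 by 1.73 ± 0.38 (adjusted p = 0.0255), both higher in BEAS-2B. Of the 167 snoRNAs, 24 rose and 2 fell in HCT116, with a median of 0.26, where 3.99% of all genes rose and 7.15% fell.

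NEK2 rose by 0.62 in BEAS-2B and fell by 0.97 in HCT116, and the steps differed by 1.58 ± 0.18 (adjusted p = 0.000128). Of the 28 mitosis genes, 13 fell in HCT116 (against 7.15% of all genes) and 0 in BEAS-2B (against 4.03%). The steps of 7 differed (against 2.62%). These counts use the brightest probe of each gene, and by the mean of its probes CDK1 did fall in BEAS-2B (-0.46). DEPDC1, a mitotic gene, had 8.25 and 8.45 at 18 h in BEAS-2B and 8.61 and 8.23 at 12 h, while it fell by 2.00 in HCT116 (difference 1.93 ± 0.29, adjusted p = 0.00281). COL1A1 fell in BEAS-2B, while in HCT116 it was not detected at either time, so the size of the difference between lines (-1.63 ± 0.26, adjusted p = 0.00399) rests on an undetected probe there. Of the 30 named genes whose steps differed between lines, 12 were undetected on all 4 late copper arrays of HCT116, COL1A1, PDLIM4, STARD8, HOXD1 and KLF7 among them. In addition, 9 of the 30 were undetected on both 18 h copper arrays of BEAS-2B, KLF7 and FMNL1 among them. The steps of KLF7 (adjusted p = 0.0131), FMNL1 (adjusted p = 0.0243) and TGM1, the gene of a crosslinking enzyme of squamous epithelium (adjusted p = 0.00468), were lower in BEAS-2B, and since none was detected at 18 h there, no exact size is read from them here. Only 8 of the 30, NEK2 among them, were detected on all 8 late copper arrays. Of the other genes with the largest differences between lines, UXS1 and PLEKHJ1 had lower steps in BEAS-2B, and CCDC121, CDADC1 and HOXB8 had higher ones, without passing the test within BEAS-2B.

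**Figure D4:**
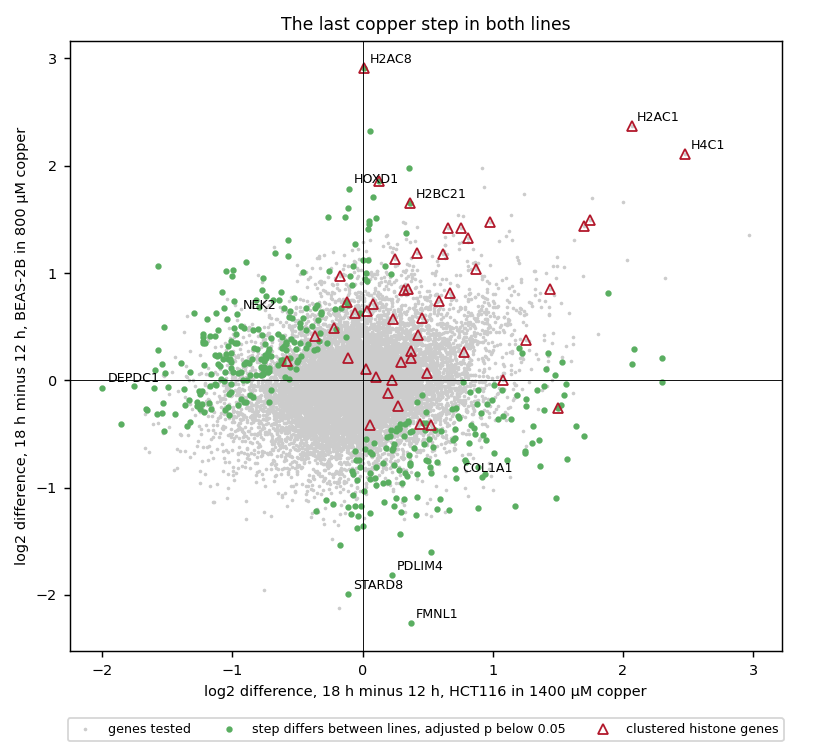
Log2 difference of 18 h minus 12 h in copper for each gene tested, in BEAS-2B (vertical axis) against HCT116 (horizontal axis), with the 385 genes whose steps differ between lines in green and the clustered histone genes as red triangles. H2AC1 and H4C1 lie high in both lines, while H2AC8 lies high in BEAS-2B and at about 0 in HCT116, where it was not detected.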

How the data were processed

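The authors deposited log2 signals per probe and array, called non-normalized in the file header, with a detection p-value beside each. BeadStudio is named in the submitters' processing notes, with no version. Array means between 7.31 and 7.33 leave it unknown whether arrays were scaled before the deposit. A second table deposited by the authors holds quantile-normalized log2 values. Signals were put on the linear scale and processed with neqc of limma 3.58.1 (R 4.3.3, offset 16). Of 43960 probes, 13 had missing values. Named probes with detection p below 0.01 on at least 2 arrays (19977) were kept, and the brightest probe stood for each of 14678 genes. A limma model with 22 group coefficients had 14 residual and 3.44 prior degrees of freedom and a median residual SD of 0.21. Tests were two-sided, and p-values were adjusted over all genes by the Benjamini-Hochberg method (0.05). Probe genes came from the platform annotation, of which RefSeq (GRCh38.p14) held 29469 probes.

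Members and lists were chosen with earlier results of these data known. The named genes were the 15 largest rises and 15 largest falls among called genes with groups that did not overlap and a probe detected on both arrays of a group, the 5 largest each way for differences between steps, up to 4 members of each of 28 lists by adjusted p, and a fixed set of stress genes, of which a part is given. Placeholder symbols were left out. Other genes were chosen after their values were seen: H3-4, H2AC17, H2AC19, H2BC5, H2AX, MACROH2A1, the snoRNAs, RNU4-2, RRM1, CCNE1, DUSP1 and FOXJ1. Arrays of 14678 genes were simulated for the copper step, with spreads by group as measured. Of 50 genes raised by 0.5 log2 units 6 were called (12%), of 50 raised by 1 unit 32 (64%), and of 50 raised by 2 units 48 (96%). Of 50 lowered by 1 unit 35 were called (70%). Beside these, 23 unchanged genes were called, against 8 when every group was simulated with the same spread. The pooled spread thus let through more false calls when spreads were as measured. The labels do not say whether replicate numbers pair arrays. No shared replicate effect was seen between the 18 h and 12 h groups, whose replicate differences correlated at -0.0060, and the main fit used no pairing. The number of arrays limits the precision.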

Additional observations from a re-analysis of the deposited data

Results flagged for a closer look

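The copper step differed between BEAS-2B and HCT116, by a test of the difference in the model, in 30 of the genes named. In BEAS-2B minus HCT116, on the log2 scale, the difference was 2.89 for H2AC8, 2.00 for CCDC121, 1.98 for CDADC1, 1.93 for DEPDC1, 1.92 for HOXB8, 1.89 for HOXD1, 1.73 for H3C12, 1.72 for KRTAP19-5, 1.63 for FAM83F, 1.58 for NEK2, 1.29 for H2BC21, 1.04 for KDM3A and 0.64 for SNHG1. It was -0.72 for DHCR7, -1.03 for COL5A2, -1.05 for MIEF1, -1.15 for ATP7B, -1.19 for GBP2, -1.23 for PLAT, -1.33 for LETM1, -1.36 for CAD, -1.41 for PAMR1, -1.63 for COL1A1, -1.88 for STARD8, -2.04 for PDLIM4, -2.08 for TGM1, -2.13 for KLF7, -2.31 for PLEKHJ1, -2.34 for UXS1 and -2.63 for FMNL1. Undetected on all 4 late copper arrays of HCT116 were 12 of these genes: H2AC8, HOXD1, KRTAP19-5, STARD8, PDLIM4, KLF7, PAMR1, GBP2, PLEKHJ1, COL1A1, COL5A2 and PLAT. Undetected on both 18 h copper arrays of BEAS-2B were 9: FMNL1, STARD8, PDLIM4, KLF7, CAD, LETM1, UXS1, PLEKHJ1 and TGM1, and KRTAP19-5 and CDADC1 were undetected on both 12 h arrays. The sizes for these genes rest in part on undetected probes.

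The copper step also differed from the untreated step in BEAS-2B, by the same kind of test, in 13 of the genes named. The difference of copper minus untreated was 2.79 for H2AC8, 2.29 for H2AC1, 2.28 for FAM83F, 2.06 for CSKMT, 1.99 for H4C1, 1.87 for HOXD1, 1.37 for VGF and 1.31 for DUSP6. It was -1.14 for MIEF1, -1.22 for GBP2, -1.33 for PAMR1, -2.01 for PDLIM4 and -2.48 for STARD8. There was 1 untreated array at each time. STARD8 and PDLIM4 were not detected at 18 h in copper, nor CSKMT at 12 h, and H2AC8, H2AC1, H4C1 and HOXD1 were not detected without copper, so these sizes too rest in part on undetected probes. The other DUSP6 probe changed by 0.01 between 12 and 18 h in copper.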

How the results depend on the processing

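With the 4 arrays alone, 0 genes rose and 0 fell at the adjusted threshold (2240 at an unadjusted p below 0.05). With the 8 copper arrays of 12 and 18 h of both lines, chosen after seeing the data, 2 rose and 0 fell (1843 unadjusted), and with array weights, also added later, 220 rose and 344 fell. The array weights of the late copper groups were 0.77 to 0.83 in BEAS-2B and 0.42 to 0.56 in HCT116, against 0.92 to 1.45 for the other arrays. Without 1 array at a time, 161 to 333 rose and 321 to 369 fell. The 19 genes whose copper step differed from the untreated step became 33 with the deposited quantile-normalized values, 33 with no background correction, 50 with an offset of 50, 10 with the strict detection filter, 30 with the mean of probes, 3 with BEAS-2B arrays alone and 10 with the replicate block, and 26 to 49 without 1 array. The cause was not tested. The 385 genes whose steps differed between lines became 0 with the 8 late arrays, 30 with array weights and 241 to 878 without 1 array. The mean of probes turned ATP7B to 0.12 and HK1 to 0.19. Sizes also shrank in some alternatives, for some genes below the bounds given above. At its weakest the log2 difference was -0.78 for PDLIM4, -1.04 for FMNL1, -1.01 for TNNC1 and -0.90 for STARD8. It was 1.89 for H2AC8, 0.97 for FAM83F and 0.88 for CSKMT. For ISCA2 it was -0.26, and its call was lost with the deposited quantile-normalized values. MCM5 (-0.79 to -0.59) and COL1A1 (-0.97 to -0.85) moved less. Clustered histone rises numbered 20 with array weights, 15 to 18 without 1 array and 0 with 4 arrays or with the 8 late arrays, and snoRNA rises 14 with array weights and 0 with 4 arrays. Those of the core histone list lay between 4 and 6 without 1 array. With the replicate block, which groups arrays by replicate number though no label says that they are paired, 350 rose, 518 fell and 334 differed between lines. Over 102 named genes, 1238 of 1625 values under alternatives kept their standing as called or not called. Another 379 lost the call, 6 gained it, and 2 turned sign in genes called in the main fit. Turns of sign in genes called by neither fit are counted among the 1238.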
